A study of Danio rerio with 8 samples.

Results

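Actin filaments grow and shrink by exchanging subunits with a pool of monomers, and the genes described here encode proteins that hold, load, release or recycle those monomers or that regulate the actin layer under the plasma membrane. Beta-thymosins bind actin monomers and keep them out of filaments. Profilins bind monomers and hand them to growing filament ends, cofilins sever and take apart older filaments, and cyclase-associated proteins help to recycle the released subunits. MARCKS and its relatives are myristoylated proteins that bind acidic phospholipids, actin and calmodulin at the inner face of the plasma membrane, and phosphorylation by protein kinase C moves them off the membrane. Cardiomyocytes also hold actin in the more stable thin filaments of the sarcomere.

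The genes were *tmsb4x*, *pfn1*, *pfn2*, *cfl1*, *cfl2*, *cap1*, *cap2*, *marcksl1a*, *marcksl1b* and *marcksb*, taken from the table of expression values by Ensembl identifier for *tmsb4x* (ENSDARG00000077777) and *marcksl1a* (ENSDARG00000039034) and by symbol for the others. Of these 10 genes, 9 had a row of their own among the 31388 genes of the table. *marcksb* did not, because 2 rows carried the human name MARCKS and the symbols alone do not tell which is *marcksb*. The family was proposed from the same comparison of *tbx5a*+ and *tbx5a*- cardiomyocytes that is described below, so the differences of its genes, and whether they pass the thresholds used for all genes, are given as a description and not as a test of the family. All 9 genes passed the filter on low values and were among the 13895 genes tested.

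The libraries came from adult zebrafish of 6 to 9 months that carried 2 transgenes, Tg(tbx5:GFP) and (myl7:nucDsRed), which the study calls *tbx5a:GFP* and *myl7:nuc-dsRed*. In these fish GFP is driven by regulatory sequence of *tbx5a*, which encodes a T-box transcription factor, and the *myl7* promoter puts a red protein in the nuclei of cardiomyocytes. Ventricles were dissociated without injury or drug treatment being named, GFP+/nuc-dsRed+ cells were sorted as *tbx5a*+ cardiomyocytes, and nuc-dsRed+ cells without GFP were sorted as *tbx5a*- cardiomyocytes. Pools of 5 hearts gave 4 libraries of each population, labelled as pairs 2, 8, 9 and 10, from 0.6 ng of total RNA and 2 rounds of amplification. The populations are thus defined by a reporter and by cell sorting, and no single cell or single animal can be followed in them. Because the samples are bulk, fewer cells of a kind and less RNA per cell cannot be told apart.

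The deposited values are estimated read counts per gene, scaled between libraries and not divided by gene length, so a gene is compared here between libraries and its level is not compared with that of another gene. Libraries held an estimated 8076560 to 9491779 reads in *tbx5a*+ and 7149190 to 9203787 reads in *tbx5a*- cardiomyocytes, and 1 read was worth 0.859 to 1.19 normalized units. The *tbx5a*- libraries of pairs 9 and 2 stood apart by having the fewest genes above 0, 11329 and 12225, against 13301 to 14983 in the other 6. *tbx5a* itself, listed as TBX5 (ENSDARG00000024894), was at 3197 to 4919 in the *tbx5a*+ libraries and at 90.5 to 442 in the *tbx5a*- libraries, in accord with the labels of all 8. Summed values of 13 cardiomyocyte rows were 722108 to 798932 in *tbx5a*+ and 659452 to 782024 in *tbx5a*- libraries, and 1 of those rows was at 0 in every library, one of the pair listed as TNNI1 (ENSDARG00000000474), of which the other was at 12802 or more. The log2 differences below are those of log2(value + 1), *tbx5a*+ minus *tbx5a*-, from a limma fit over all genes tested, so a negative value means higher in *tbx5a*- cardiomyocytes, and their median over all genes tested was 0.20. The replicates were pools of hearts, so the spread within a population is that between these pools and their libraries. Each standard error (SE) is from the limma fit, which adjusts a gene's own spread toward a trend over all genes tested. The SE and the interval of a gene are thus not measures of its own spread alone.

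A gene was called if its log2 difference was at least 1 in size and its limma p-value, after Benjamini-Hochberg adjustment over all genes tested, did not exceed 0.05. In this family *tmsb4x* and *marcksl1a* were called, and both were higher in *tbx5a*- cardiomyocytes, *tmsb4x* 7.67-fold and *marcksl1a* 6.20-fold by the ratio of means. These are 2 of 9 genes, beside 0.194% of the 13895 genes tested, of which 26 were called higher in *tbx5a*- (0.187%) and 1, *tbx5a*, was called higher in *tbx5a*+ (0.0072%). With the pair as a block in the fit the same 2 genes were called, beside 0.417% of all genes tested, 0.281% in the direction of *tbx5a*- and 0.137% in that of *tbx5a*+. The profilins, cofilins and cyclase-associated proteins of the family were not called, and their log2 differences lay between -0.27 and 0.30. Nothing is read from the 2 calls, since this contrast was used to choose the family.

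**Figure D1:**
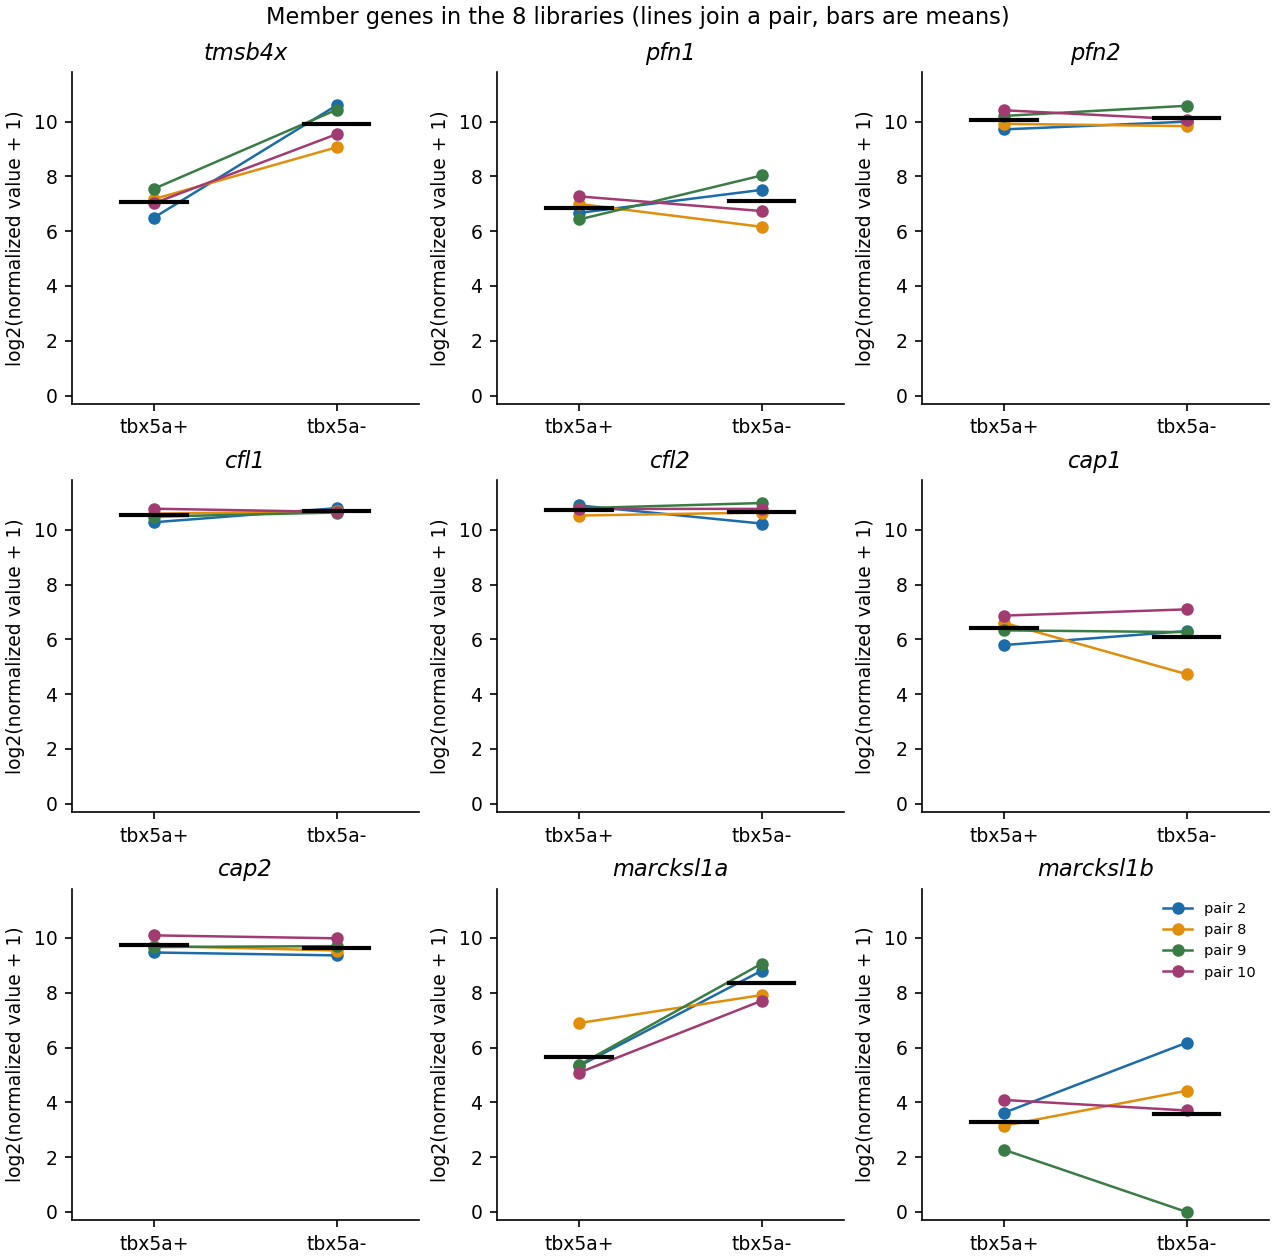
The vertical axis gives log2(normalized value + 1) in *tbx5a*+ and *tbx5a*- cardiomyocytes for the 9 genes with a row of their own, each point is a library, lines join the libraries of a pair and bars are means of 4 libraries. The lines of *tmsb4x* and *marcksl1a* rise toward *tbx5a*- in all 4 pairs without overlap of the groups, and those of the other 7 genes cross or stay level.

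*tmsb4x* encodes thymosin beta 4, the main actin monomer-sequestering peptide of many vertebrate cells, whose gene is X-linked in mammals. In *tbx5a*+ cardiomyocytes its normalized value was 89.3, 143, 186 and 129 in pairs 2, 8, 9 and 10. In *tbx5a*- cardiomyocytes it was 1543, 533, 1381 and 744 in the same order. The lowest *tbx5a*- library, of pair 8, lay above the highest *tbx5a*+ library, of pair 9, so the groups did not overlap, as was so for 3.97% of the genes tested (1.65% with *tbx5a*- above). The mean was 137 ± 40.1 (SD, n = 4) for the *tbx5a*+ libraries, against 1050 ± 488 (SD, n = 4) for the others. The log2 difference was -2.85 (SE 0.34), and within pairs it was -4.10, -1.89, -2.88 and -2.52. Thus the gene was higher in *tbx5a*- in 4 of 4 pairs, by 3.72-fold in pair 8 and by 17.3-fold in pair 2. These values rest on an estimated 565 reads in the *tbx5a*+ and 3960 reads in the *tbx5a*- libraries. The 2 highest values were those of the *tbx5a*- libraries with the fewest genes above 0. Without both of these libraries the log2 difference was -2.24, and the gene was still called.

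Rows of other thymosin genes (*tmsb*, *tmsb1*, *tmsb2* and *tmsb5*) held few or no reads. *tmsb* was at 0 in the 4 *tbx5a*+ libraries and at 18.6, 7.15, 77.1 and 6.01 in the *tbx5a*- libraries of pairs 2, 8, 9 and 10. It was not called (limma adjusted p = 0.488). No fold difference is given, since *tmsb* was at 0 in *tbx5a*+ and its *tbx5a*- mean rested mostly on the library of pair 9. *tmsb1* and *tmsb2* were above 0 in 1 library each, the *tbx5a*- library of pair 10, at 10.3 and 4.29, and *tmsb5* was at 0 in all 8. *tmsb* passed the filter on low values only through the *tbx5a*- libraries of pairs 2 and 9, which fixes its direction, and its values rest on an estimated 96.0 reads in all.

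*pfn1* and *pfn2* encode profilins, which exchange the nucleotide on actin and feed monomers to formins and other elongation factors. *pfn1* was at 101, 127, 85.1 and 153 in *tbx5a*+ and at 181, 70.5, 261 and 106 in *tbx5a*- cardiomyocytes, pairs in the order 2, 8, 9 and 10. The groups overlapped and the pairs were split: *pfn1* was higher in *tbx5a*- in pairs 2 and 9 and lower in pairs 8 and 10. Its log2 difference was -0.27 (SE 0.45, 95% interval -1.20 to 0.66), so that a difference of 1 in size, toward *tbx5a*-, was within the interval. As for *tmsb4x*, the 2 highest *pfn1* values were those of the *tbx5a*- libraries of pairs 9 and 2, and without both the log2 difference was 0.39.

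The row listed as PFN2 (ENSDARG00000012682) was at 840, 967, 1181 and 1362 in *tbx5a*+ and at 1021, 912, 1526 and 1078 in *tbx5a*- cardiomyocytes. The groups overlapped over most of their range. The log2 difference was -0.06 (SE 0.23), and its 95% interval of -0.53 to 0.42 left out a 2-fold difference in either direction. A separate row, *pfn2b* (ENSDARG00000003952), was at 1026, 1132, 1076 and 1164 in *tbx5a*+ and at 1806, 1198, 1495 and 1160 in *tbx5a*- cardiomyocytes. It was the higher in *tbx5a*- in pairs 2, 8 and 9 and nearly level in pair 10, with a log2 difference of -0.34 (limma adjusted p = 0.749). *pfn4*, a profilin known from the testis in mammals, was at 22.2 to 44.6 in *tbx5a*+ and at 0, 32.0, 1.68 and 44.6 in *tbx5a*- cardiomyocytes, and its estimated log2 difference of 2.10 (limma adjusted p = 0.749) rested on the low *tbx5a*- libraries of pairs 2 and 9. RSEM divides reads that fit several genes by estimation, and how many reads the profilin rows share was not measured here.

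*cfl1* and *cfl2* encode cofilins, of which cofilin 2 is the muscle form in mammals. *cfl1*, listed as CFL1 (ENSDARG00000021124), was at 1236, 1536, 1425 and 1742 in *tbx5a*+ and at 1768, 1632, 1582 and 1606 in *tbx5a*- cardiomyocytes. Its log2 difference was -0.16 (SE 0.20, 95% interval -0.57 to 0.25), and the *tbx5a*- libraries varied by only 5.05% (coefficient of variation). *cfl2*, listed as CFL2 (ENSDARG00000014106), was at 1894, 1467, 1763 and 1733 in *tbx5a*+ and at 1196, 1581, 2012 and 1735 in *tbx5a*- cardiomyocytes. Its log2 difference was 0.09 (SE 0.21, 95% interval -0.34 to 0.52), and that sign turned when all libraries were scaled to the same total. For both cofilins the groups overlapped and the interval left out a 2-fold difference. Pair 2 held the largest difference of both genes, with *cfl1* higher in *tbx5a*- by 1.43-fold and *cfl2* higher in *tbx5a*+ by 1.58-fold, and no other pair differed by as much.

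Cyclase-associated proteins act with cofilin at filament ends and reload actin with ATP, and CAP2 is the form of striated muscle in mammals. *cap2*, listed as CAP2 (ENSDARG00000104478), was at 707, 835, 812 and 1091 in *tbx5a*+ and at 657, 744, 831 and 1013 in *tbx5a*- cardiomyocytes. It followed its pair more closely than the other 8 genes did: the log2 differences within pairs were 0.11, 0.17, -0.03 and 0.11, with an SD of 0.085 over the 4 pairs. Its log2 difference was 0.09 (SE 0.23, 95% interval -0.40 to 0.57), and that sign also turned under scaling to the same total. *cap1*, listed as CAP1 (ENSDARG00000016350), was at 54.4, 96.2, 79.4 and 116 in *tbx5a*+ and at 77.9, 25.6, 75.9 and 136 in *tbx5a*- cardiomyocytes. The groups overlapped, pair 8 alone differed by more than 2-fold (3.77-fold higher in *tbx5a*+), and the log2 difference of 0.30 (SE 0.56) had a 95% interval of -0.86 to 1.46, which spans a 2-fold difference toward *tbx5a*+.

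**Figure D2:**
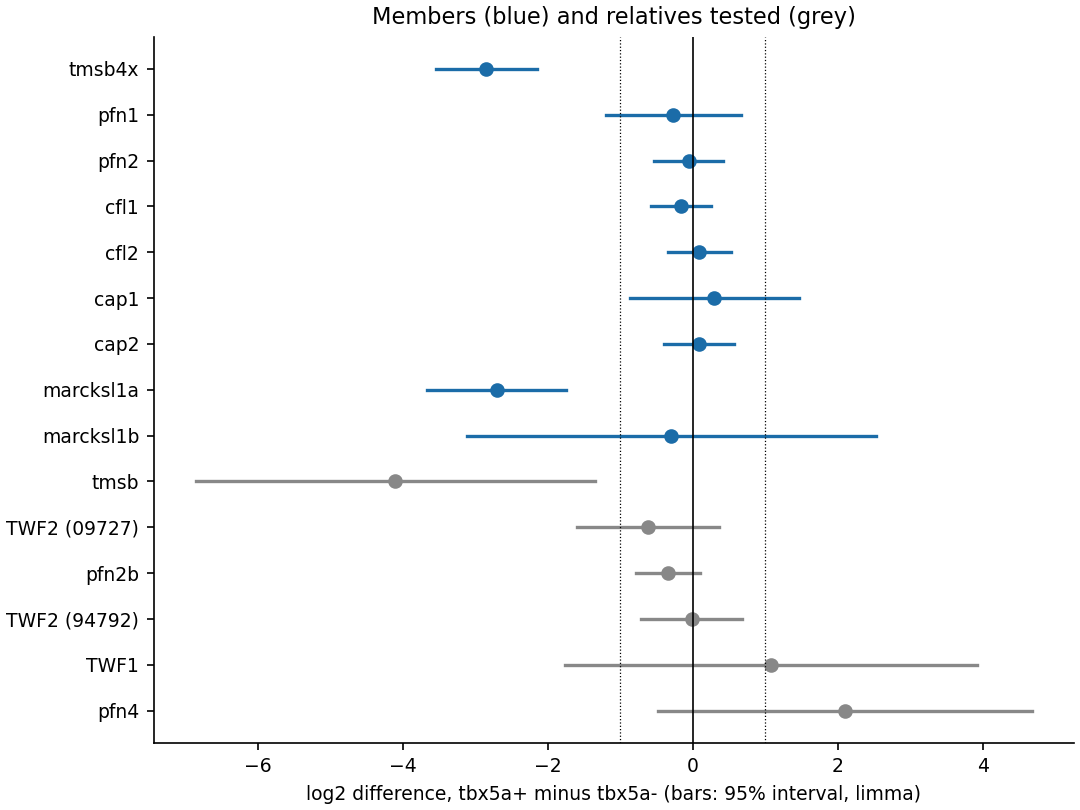
Points are log2 differences (*tbx5a*+ minus *tbx5a*-, horizontal axis) with 95% intervals from limma, in blue for the 9 genes and in grey for 6 relatives that were tested, and dotted lines mark a 2-fold difference. The intervals of *tmsb4x* and *marcksl1a* lie wholly beyond the line at -1, those of *pfn2*, *cfl1*, *cfl2* and *cap2* lie between the lines, and that of *marcksl1b* runs from -3.12 to 2.53. Among the relatives, that of *tmsb* (-6.86 to -1.35) also lies beyond -1. *tmsb* passed the filter only through *tbx5a*- libraries, which fixes its direction, so nothing is read from its place.

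*marcksl1a* encodes a MARCKS-like protein. It was at 39.0, 118, 40.2 and 32.9 in *tbx5a*+ cardiomyocytes of pairs 2, 8, 9 and 10. In *tbx5a*- cardiomyocytes it was at 445, 240, 532 and 208. The groups did not overlap, since the highest *tbx5a*+ library, of pair 8, was below the lowest *tbx5a*- library, of pair 10. Means were 57.5 ± 40.3 (SD, n = 4) and 356 ± 158 (SD, n = 4). The log2 difference was -2.70 (SE 0.47), and within pairs it was -3.48, -1.02, -3.70 and -2.62. The gene was higher in *tbx5a*- in 4 of 4 pairs, as were 5.38% of the genes tested, by 2.04-fold in pair 8 and by 13.3-fold in pair 9. Its 2 highest values again came from the *tbx5a*- libraries of pairs 2 and 9. Without both, the log2 difference was -2.15 and the gene was no longer called in the 6 libraries left.

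The paralogue *marcksl1b* was low in both populations and did not share this order. It was at 11.3, 7.85, 3.82 and 16.0 in *tbx5a*+ and at 71.3, 20.4, 0 and 12.0 in *tbx5a*- cardiomyocytes. The library with the highest *marcksl1a* value, *tbx5a*- of pair 9, held no *marcksl1b* read, and the *tbx5a*- library of pair 2 held the highest value. The log2 difference of -0.29 (SE 1.37, 95% interval -3.12 to 2.53) rested on an estimated 40.0 reads in *tbx5a*+ and 99.0 reads in *tbx5a*- libraries, and no difference was detectable at this depth. Of the rows listed as MARCKS, one (ENSDARG00000004049) was at 0 in all 8 libraries. The other (ENSDARG00000008803) was at 9.24, 0, 2.87 and 0 in *tbx5a*+ and at 30.7, 0, 0 and 0 in *tbx5a*- cardiomyocytes, an estimated 12.0 and 28.0 reads. How many reads these paralogues share was not measured here.

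**Figure D3:**
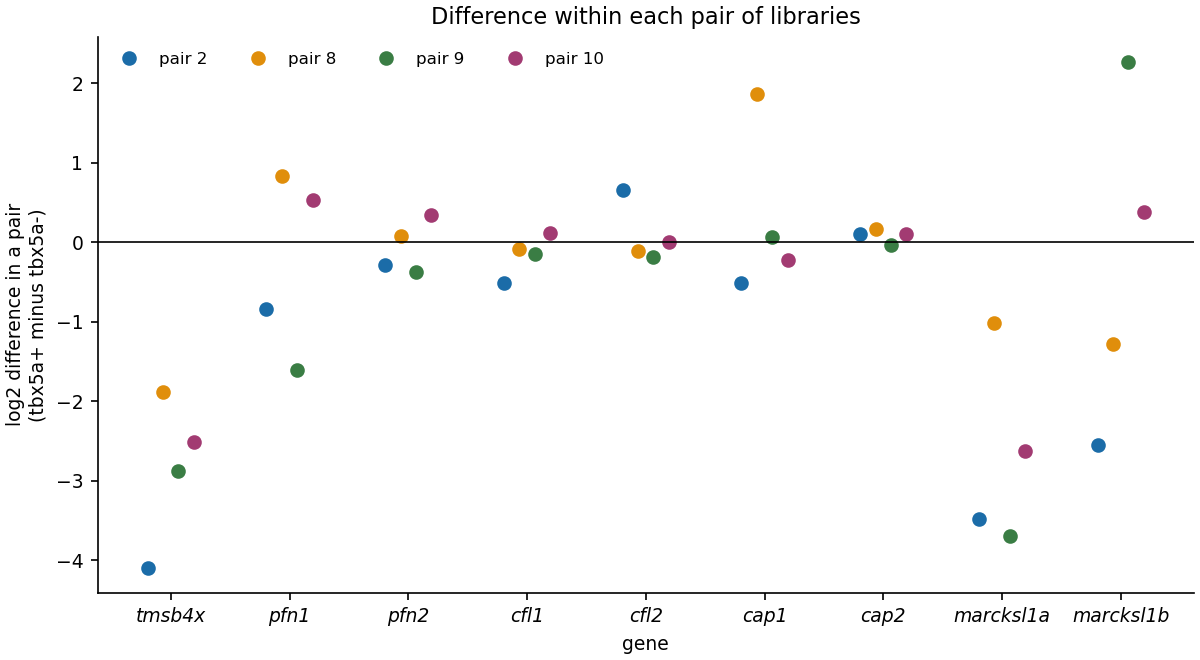
Each point is the log2 difference (*tbx5a*+ minus *tbx5a*-) of log2(value + 1) within a pair of libraries, by gene, with pairs in colour. *tmsb4x* and *marcksl1a* lie below 0 in 4 of 4 pairs, from -4.10 to -1.02 over both, whereas the points of *pfn1* run from -1.61 to 0.84 and those of *cap2* from -0.03 to 0.17.

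Ratios of 2 genes within a library are free of the scaling between libraries. Their level depends on the lengths of both genes, so only the difference between the populations is given. The mean log2 ratio of *tmsb4x* to *pfn1* differed by -2.58 (*tbx5a*+ minus *tbx5a*-), that of *tmsb4x* to *pfn2* by -2.79 and that of *tmsb4x* to *cfl1* by -2.69. In none of the 3 did the libraries of the populations overlap. These ratios mostly repeat the difference of *tmsb4x* itself (-2.85), and this contrast was used to choose the family. Nothing is thus read from the lack of overlap. The ratio of *tmsb4x* to *marcksl1a* differed by -0.14 and overlapped, with a range over the 4 *tbx5a*- libraries (1.15 to 1.83) that lay within that over the 4 *tbx5a*+ libraries (0.28 to 2.19). Between paralogues, the ratio of *pfn1* to *pfn2* differed by -0.21, that of *cfl1* to *cfl2* by -0.25 and that of *cap1* to *cap2* by 0.21, all with overlap. The ratio of *marcksl1a* to *marcksl1b* overlapped too, and no difference is given for it because *marcksl1b* was at 0 in the *tbx5a*- library of pair 9, where the added 1 sets the ratio. Of the summed value of the 9 genes, *tmsb4x* took at most 3.34% in *tbx5a*+ and 9.26% to 22.2% in *tbx5a*- libraries, and *marcksl1a* took 0.516% to 2.22% and 3.13% to 6.49%. The share of *cfl2* was 27.2% to 38.1% in *tbx5a*+ and 17.2% to 27.5% in *tbx5a*- libraries, while its own values overlapped as given above. These shares depend on gene lengths as the ratios do, so only their change between the populations is read. A higher *tmsb4x* value also enlarges the sum and so lowers the shares of the other genes.

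**Figure D4:**
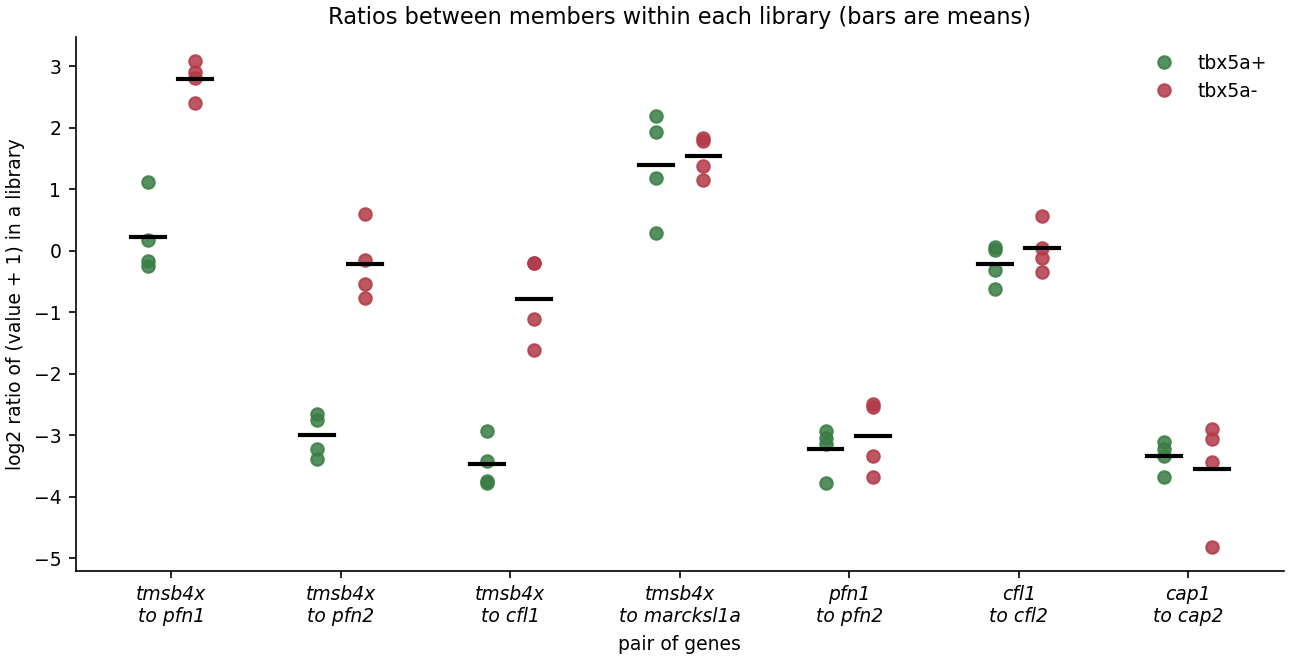
The vertical axis is the log2 ratio of (value + 1) of 2 genes in the same library, green for *tbx5a*+ and red for *tbx5a*-, with bars for means of 4 libraries. The ratios of *tmsb4x* to *pfn1*, *pfn2* and *cfl1* are lower in *tbx5a*+ without overlap (differences of -2.58, -2.79 and -2.69), and the ratio of *tmsb4x* to *marcksl1a* and the ratios between paralogues shown overlap. The ratios without overlap mostly repeat the difference of *tmsb4x* itself, so nothing is read from them.

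The pattern of *tmsb4x* over the 8 libraries was most like that of *pvrl2l* (Pearson r of log2(value + 1) = 0.983), *rpz5* (0.980), *si:ch73-366l1.5* (0.971), *txnb* (0.970) and KIF26B (0.968). For *marcksl1a* the nearest genes were AGAP1 (0.975), ZBTB7B (0.968), *emilin1b* (0.965), *si:ch211-1a19.3* (0.960) and RND3 (0.953), and *marcksl1a* and *tmsb4x* had an r of 0.929. The other 7 genes had an r with *tmsb4x* of -0.28 (*cfl2*) to 0.57 (*cfl1*). *pvrl2l* and *si:ch73-366l1.5* were at 0 in the 4 *tbx5a*+ libraries and passed the filter only through *tbx5a*-. ZBTB7B was at 0 to 6.87 in *tbx5a*+. For these genes the added 1 in part sets r. All of these points share the 2 populations and the *tbx5a*- libraries of pairs 2 and 9, so r mostly repeats the difference between populations. *txnb*, for example, was at 1035 and 1037 in these 2 libraries, at 339 and 427 in the *tbx5a*- libraries of pairs 8 and 10, and at 47.2 to 185 in *tbx5a*+ cardiomyocytes. Of the 10 genes named for likeness, *rpz5*, *txnb*, *emilin1b* and *si:ch211-1a19.3* were called, all higher in *tbx5a*-, beside 0.194% of all genes tested. The 10 were picked in these same libraries for likeness to genes called higher in *tbx5a*-. Their direction and calls thus follow from the choice, and nothing is read from them.

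The genes around the family were given by 6 lists of actin regulators. None of their 115 tested genes was called, beside 0.194% of all genes tested, a share so low that nothing is read from the lack of calls. Relatives of the monomer binders (thymosins, profilins, twinfilins and a cofilin-like gene) had 6 tested genes and a median log2 difference of -0.18, beside 0.20 over all genes tested. Twinfilins, which sequester monomers and cap filament ends, were at 0 to 40.6 for TWF1 and overlapped for both rows of TWF2. Regulators of cofilin (LIM, ROCK and PAK kinases and slingshot phosphatases) had 21 tested genes with a median of 0.20. None of them had an unadjusted p under 0.05, as 7.06% of all genes tested had. The smallest were those of PAK4 (log2 difference 0.53), ROCK2 (ENSDARG00000004877, -0.49) and the phosphatase gene *ssh2b* (-1.70). Each of these rested in part on 1 library: PAK4 was at 0.27 without the *tbx5a*- library of pair 2, ROCK2 at -0.23 without that of pair 9, and *ssh2b* at -0.61 without the *tbx5a*+ library of pair 8. Another row listed as ROCK2 (ENSDARG00000017500) lay on the other side, at 0.20.

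Arp2/3, WAVE and formin genes, which nucleate filaments, had 37 tested genes with a median log2 difference of 0.09. FHOD3, a formin known in mice and humans for building sarcomeres, was at 78.6, 81.3, 26.5 and 33.8 in *tbx5a*+ and at 201, 228, 241 and 189 in *tbx5a*- cardiomyocytes. These groups did not overlap, as was so for 3.97% of the genes tested (1.65% with *tbx5a*- above). The log2 difference was -2.10 (SE 0.47). The limma adjusted p was 0.0752, or 0.0242 with the pair as a block. With that block FHOD3 was the only gene of these lists called, beside 0.417% of all genes tested. A separate row, *fhod3a* (ENSDARG00000063682), lay on the other side, with a log2 difference of 0.30, and was not called. WASF3, a WAVE gene, was at 0 in the 4 *tbx5a*+ libraries and at 13.2, 2.04, 49.8 and 17.2 in the *tbx5a*- libraries, through which alone it passed the filter (limma adjusted p = 0.549). ACTR3B, an Arp3 gene, was the tested gene of the list with the largest log2 difference toward *tbx5a*+, 2.87 (limma adjusted p = 0.70), at 12.2 to 47.2 in *tbx5a*+ and at 0 to 26.3 in *tbx5a*- cardiomyocytes.

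Genes that bind filament ends had 16 tested genes and a median log2 difference of -0.04. CAPZB, the beta subunit of the barbed-end capping protein, was at 370 to 811 in *tbx5a*+ and at 127 to 435 in *tbx5a*- cardiomyocytes, with a log2 difference of 1.22 (limma adjusted p = 0.362, and 0.0523 with the pair as a block). TMOD3, which caps pointed ends, was at 3.93 to 31.6 in *tbx5a*+ and at 31.8 to 83.8 in *tbx5a*- cardiomyocytes, ranges less than 1 read apart. Its log2 difference was -2.18 (limma adjusted p = 0.673). SVIL, the membrane-linked actin binder supervillin, had a log2 difference of -0.51 with the same adjusted p. Of the inputs to MARCKS proteins (protein kinase C, calmodulin, PIP kinase and N-myristoyltransferase genes), 29 were tested with a median of 0.17, and the smallest p-values were those of PRKCA (1.12), PIP5K1C (1.95) and *calm3a* (-0.46). None of these passed, and PIP5K1C was at 1.24 without the *tbx5a*- library of pair 2 and *calm3a* at -0.28 without the *tbx5a*+ library of the same pair. The 6 tested genes of the MRTF and SRF list, through which the pool of free actin is read by the nucleus, had a median of -0.18, and the 2 rows listed as SRF stood on opposite sides (-0.48 for ENSDARG00000053918 and 2.37 for ENSDARG00000102867, limma adjusted p = 0.749 and 0.696). The first was at -0.29 without the *tbx5a*- library of pair 10 and the second at 1.19 without that of pair 9, in which it was at 0.

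**Figure D5:**
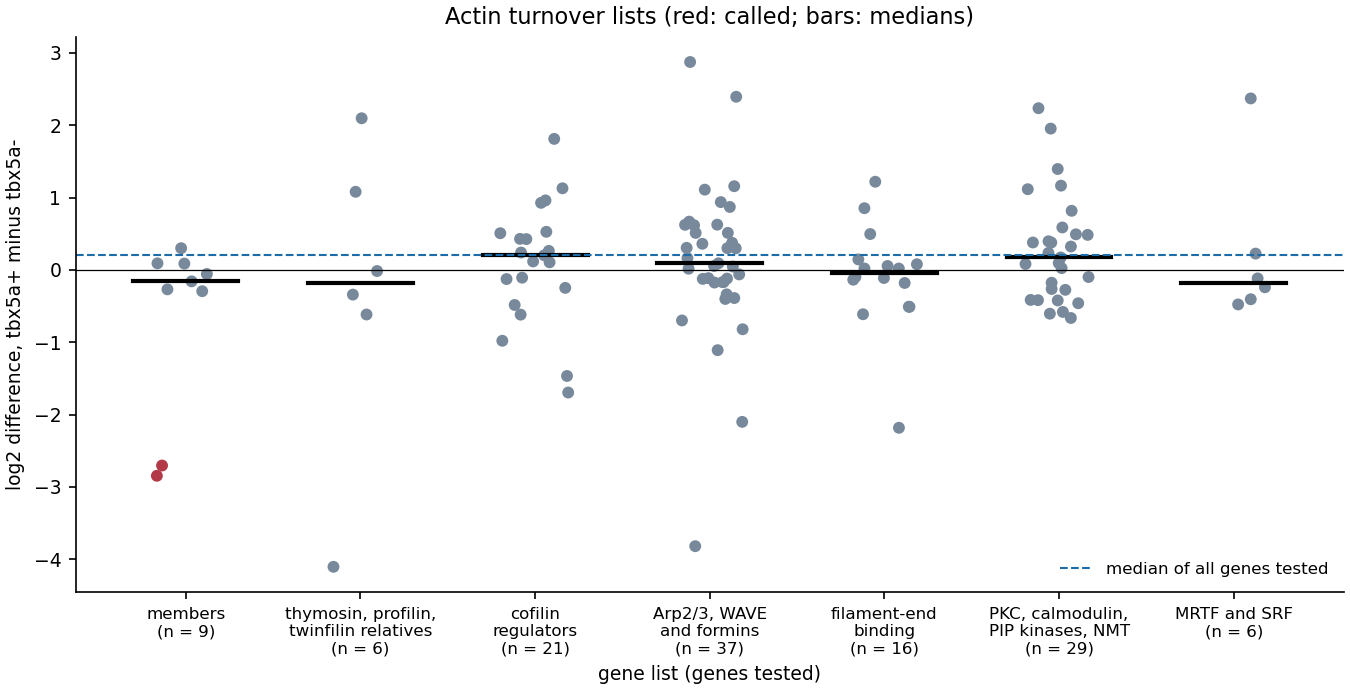
Each point is the log2 difference (*tbx5a*+ minus *tbx5a*-) of a tested gene, by list, with bars for list medians and a dashed line at 0.20, the median of all genes tested. The 2 red points, at -2.85 and -2.70, are *tmsb4x* and *marcksl1a*. No gene of the other 6 lists was called, beside 0.194% of all genes tested.

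Markers of other cell types were summed per library beside these values. In the list of smooth muscle and mural cells, DES, which cardiomyocytes share, made up most of the sum. Without it the sum was 340, 319, 295 and 653 in *tbx5a*+ and 2335, 614, 3091 and 1208 in *tbx5a*- cardiomyocytes of pairs 2, 8, 9 and 10, and it was highest in the libraries in which *tmsb4x* and *marcksl1a* were highest. Of its 17 rows 8 were tested. Of these, 2 were called, both higher in *tbx5a*-, beside 0.187% of all genes tested in that direction. They were *acta2* (0 to 5.84 in *tbx5a*+ and 111 to 518 in *tbx5a*-) and a TAGLN row (ENSDARG00000045408, 144 to 437 and 376 to 2063). That TAGLN row was the largest part of the sum without DES, at 1685, 376, 2063 and 654 in the *tbx5a*- libraries. Of the 8 tested rows 7 had a log2 difference below 0, as had 5381 of the 13895 genes tested. The median over the 8 was -1.50, beside 0.20 over all genes tested. Among these 7 were a CNN1 row (ENSDARG00000102398, -2.43), NOTCH3 (-2.99) and *rgs5b* (-0.85), which were not called. The exception was the other TAGLN row (ENSDARG00000033466, 0.80), at 8.30 to 39.5 over the 8 libraries and not called. The other CNN1 row, a DES row and RGS5 were at 0 in all 8 libraries. MYH11 rows were at 0 to 48.1, and LMOD1 and MYLK rows were at 0 to 11.9. The part of these markers in the result was not tested. Sums of 17 leukocyte rows were 202 to 284 in *tbx5a*+ and 145 to 457 in *tbx5a*- libraries, with CORO1A, *lyz*, *csf1ra*, *marco* and a row of MPEG1 at 0 in all. Sums of 10 thrombocyte rows were 29.2 to 90.6 and 47.8 to 149, with *itga2b* and *gp9* at 0 in all. Sums of 15 endothelial rows were 95.9 to 219 and 54.5 to 314, with ESAM at 0 in all. In the fibroblast and epicardial list, *podxl* (1024 to 2534, log2 difference 0.44, not called) made up most of the sum. That sum was 1457 to 2754 and 1269 to 1957. Without *podxl* the sums of 17 rows were 167 to 300 and 105 to 563, with TCF21, LUM and WT1 at 0 in all. Those of 7 erythroid rows were 40.6 to 46.7 and 29.2 to 50.0, with *alas2*, *hbaa1* and *hbaa2* at 0 in all. The sums of these 5 lists overlapped between the populations. Within pairs 2, 8, 9 and 10 the thrombocyte sum was always higher in *tbx5a*- (135, 119, 149 and 47.8, against 90.6, 33.9, 57.4 and 29.2). Of its 5 tested rows 4 had a log2 difference below 0 and 1 above, with a median of -1.36, and 0 were called. In the other lists the direction differed between pairs. Other markers of these lists were above 0 in all 8 libraries, so the zeros do not show that a cell type was absent. Among them were *csf1rb* (44.2 to 148), *cdh5* (8.59 to 159), *col1a1a* (13.4 to 151) and *wt1b* (1.07 to 135), none of them called.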

How the data were processed

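RNA-Seq of 8 libraries (60-base single reads) was analysed. The authors removed adaptors with cutadapt, estimated counts per gene with RSEM and normalised them, and the deposited signal is the scaled estimated count. The methods name another RSEM release and annotation than the submitters' processing notes (RSEM 1.2.3, CASAVA 1.8.2, build Zv9), so no coordinates are printed. The sources used here do not say if counting used strand. Low values (under 60) were multiples of 1 read in 71.1% to 77.7% of cases (within 0.0051 of a whole multiple), so reads are estimates.

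Genes that reached 1 CPM in 2 or more libraries (13895 of 31388) were fitted with limma 3.58.1 (trend) in R 4.3.3 on log2(value + 1), without a pair term, as the methods name none. A pair block, pseudocounts of 0.5 and 5, other filters and scalings, a robust fit, limma-voom and left-out libraries were alternatives. The test was tested on simulated data. The labels pair the libraries, and deviations from group means correlated at 0.0428 to 0.089 within pairs. Low as these values are, every library correlated best with its own partner among the libraries of the other population. No libraries were duplicates. The members and lists were chosen with earlier results of these data known. All 9 genes with a row, the called genes of a list and its 3 tested genes of smallest p, and the 5 genes most like *tmsb4x* and *marcksl1a* were named. Symbols came from a table of Ensembl names (capitals are human matches). A planned description of sequences was not made, since no sequence tables were used here. Python 3.11.15, numpy 2.4.6, pandas 2.3.3 and matplotlib 3.10.9 were used.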

Additional observations from a re-analysis of the deposited data

Results flagged for a closer look

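The *tbx5a*+ library of pair 8 stood apart in *marcksl1a*, at a normalized value of 118, whereas the other 3 *tbx5a*+ libraries were at 32.9 to 40.2. Its gap to the nearest of them took 0.915 of the range of the group, above Dixon's 95% limit for 4 samples, and pair 8 held the smallest difference of *marcksl1a*. Without that library the log2 difference of *marcksl1a* was -3.11.

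The *tbx5a*- library of pair 2 was alone in its group in holding reads of the MARCKS row ENSDARG00000008803, at 30.7 against 0 in the other 3. A lone value above 0 beside 3 zeros always stands apart in this way, so nothing is read from it. In all, 20 groups were looked at, and chance sets apart about 1 group in 20.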

How the results depend on the processing

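Over 18 alternatives, *tmsb4x* was called in 18 and *marcksl1a* in 17. Leaving out both *tbx5a*- libraries of pairs 2 and 9 left 1 of the family called, *tmsb4x*, with 6 genes called over the table, 5 of them higher in *tbx5a*-. It also turned the sign of *pfn1* (0.39), *pfn2* (0.11), *cap2* (-0.0292), *pfn4* (-0.19) and MRTFB (0.16). With the pair as a block 58 genes were called, 19 of them higher in *tbx5a*+, and pseudocount 5, the robust fit and limma-voom each gave 3 higher in *tbx5a*+. The 1 further call in a list, FHOD3, came with the block, pseudocount 5 (adjusted p = 0.0429), scaling to the library total (0.0491) and the robust fit (0.0318). The block changed no other call in the family or the 6 lists. Scaling to the library total moved the median log2 difference of all genes from 0.20 to 0.09 and turned *cfl2* (-0.0290) and *cap2* (-0.0326).

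Leaving out each library in turn gave 19 to 31 called genes, 18 to 25 higher in *tbx5a*- and 1 to 8 higher in *tbx5a*+ (8 without the *tbx5a*+ library of pair 8, 5 without the *tbx5a*- library of pair 10 and 2 without that of pair 8), with 2 of the family called each time. Log2 differences then ranged from -3.13 to -2.62 for *tmsb4x*, -3.11 to -2.47 for *marcksl1a*, -0.585 to 0.0388 for *pfn1*, -0.174 to 0.0948 for *pfn2*, -0.0502 to 0.20 for *cfl2*, -0.16 to 0.63 for *cap1*, -0.0329 to 0.20 for *cap2* and -1.49 to 0.57 for *marcksl1b*. The cause of these changes was not tested. Depth limits *marcksl1b*, the MARCKS rows and *tmsb*, with fewer than 100 estimated reads in a population. The same holds for these genes of the lists: *pfn4*, TWF1, *ssh2b*, ACTR3B, WASF3, TMOD3, PIP5K1C and SRF (ENSDARG00000102867).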
